A study of Drosophila melanogaster with 16 samples.

Results

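Fmr1 and Adar are the 2 genes whose coding sequences were joined in the FMR1-ADARcd-V5 fusion that edits RNA in this study. They were chosen by their gene symbols, and both were found among the 5003 genes of the bulk editing table and in the variant calls of bulk and single-cell libraries. The bulk calls held 195 records in these genes of 162077 in all. Fmr1 encodes an RNA-binding protein that represses translation of its client mRNAs and enters stress granules, the protein and RNA condensates that form under stress. Adar encodes the adenosine deaminase that converts adenosine to inosine in double-stranded RNA, chiefly in neurons, and inosine is read as guanosine after sequencing. A read from either gene can come from the endogenous transcript or from the fusion. Editing of the fusion's own mRNA is called self-editing below, and endogenous transcripts of both genes can be edited as well.

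Bulk libraries were made by VASA-seq, which covers whole transcripts, from S2 cells, a cell line from Drosophila embryos, and from dissociated brains of larvae of the third instar. In S2 cells the fusion stood under a copper-inducible metallothionein promoter in 1 stably transfected clone, and 1 mM copper was given for 4 h. The cells were then kept in Schneider's medium (3 samples) or in 0.5 mM arsenite (3 samples) for 4 h, and 1 sample received no copper. In brains, elav-GeneSwitch-Gal4, a neuronal driver switched on by the drug RU486, drove a UAS transgene of the fusion with EGFP, and brains of several larvae were pooled in each sample. Brain cells were kept for 4 h in Schneider's medium (3 samples) or 0.5 mM arsenite (3 samples), and 1 sample was from larvae without RU486. Single S2 cells of the same line came from 2 plates. Each plate held 96 wells in Schneider's medium, 96 in Krebs Ringer buffer and 96 in arsenite, each for 4 h after 4 h of induction. A further 80 wells per plate had 2 h of induction and 2 h in Schneider's medium, here called short induction, and 16 wells were empty. Each condition occupied its own columns of the plate, so condition and plate column cannot be told apart. The study describes the bulk replicates as triplicate experiments, for brains as biological triplicates. The 2 plates are not described as separate cultures, so p-values over plates measure a spread that may be technical.

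The 14 bulk samples had 247153 to 458176 reads at A-to-G positions, counted after collapse of molecular identifiers. The summed depth of 7 neuronal markers was 2388 to 2812 RPM (reads after scaling the A-to-G position reads of each sample to 1000000) in brain samples and 57.7 to 112 in S2 samples. Of these 7, Syt1 and para were at 0 in all S2 groups. The others were not: elav and Appl had reads in every S2 group and nSyb in both induced groups. Reads of brp were seen in S2 Schneider's and of fne in S2 arsenite. Of 6 markers of S2 cells and hemocytes, 3 had positions, with 2551 to 2885 RPM in S2 cells and 166 to 238 in brains. The glial markers repo, alrm and Gs2 had no position.

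Fmr1 (FBgn0028734) lies on the reverse strand at 3R:10101420-10110121 of BDGP6, and Adar (FBgn0026086) on the forward strand at X:1773725-1788065. Adar lies inside the longer gene prage on the same strand, but 0 of its A-to-G positions fell in exons of prage. Sites are numbered here on the transcript with the most shared start codon and the longest coding sequence, FBtr0082197 for Fmr1 (684 residues) and FBtr0339272 for Adar (669 residues). The fusion begins at the start codon of FMR1. The first 23 bases of FMR1 in the primer that built it are printed because they fix where the fused part of Fmr1 starts, with the start codon in capitals.
Fmr1, start of the fused coding sequence: ATGgaagatctcctcgtggaagt

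The fused part of Adar had to be found from the data. In the wells with cells, depth along the Adar coding sequence split into 2 levels between X:1780402, with 169 reads, and X:1780431, with 907 reads, both in exon 7. The next position, X:1780458, had 1576 reads. This step, placed after the depth was seen by the best fit of 2 levels, separates residues 269 and 278. Coding positions from the step on are taken below as the fused part of Adar, and those before it, like the UTRs of both genes, as parts outside the fusion. The edge is not sharp. X:1780402, counted as before the step, had 15 reads in Schneider's wells, 64 in Krebs Ringer buffer, 45 in arsenite and 45 after short induction, so it too was higher in the other conditions than in Schneider's. Values before the step in single cells are therefore also given without it, a choice made after seeing the data.

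Adar also carried a base that may tell fusion and endogenous reads apart. The catalytic domain of the fusion bears a hyperactivating substitution, which the name of the line gives as E488Q. Among the single-base changes in Fmr1 and Adar other than A-to-G, exactly 1 exceeded 50% of reads in induced S2 cells. It was a G-to-C change at X:1782976, which turns the codon GAG into CAG, and so Glu458 into Gln (E458Q in FBtr0339272, E421Q in FBtr0070299, counted from the start codon of each transcript). No comparable base was found in Fmr1.

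In S2 cells nearly all reads at this base carried the change, 119 of 120 with Schneider's (99.2%, lower bound of the 95% Clopper-Pearson interval 95.4) and 185 of 186 with arsenite (99.5%). The uninduced S2 sample had 5 of 6 reads with the change (83.3%, 35.9 to 99.6). The change was therefore not absent without copper, and whether these reads came from uninduced fusion or from the cell line's own gene was not tested. In single cells the share was 65 of 68 reads in Schneider's, 326 of 328 in Krebs Ringer buffer, 260 of 262 in arsenite and 262 of 265 after short induction. Intervals here and below cover counting error only.

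Brains held a mixture. The uninduced brain sample had 0 of 2 reads with the change. Of the Schneider's samples, replicate 1 had 1 of 10 reads, replicate 2 had 3 of 8 and replicate 3 had 3 of 3, in sum 7 of 21 (33.3%, 14.6 to 57.0). The arsenite samples had 8 of 9, 13 of 16 and 6 of 9 reads, in sum 27 of 34 (79.4%, 62.1 to 91.3). The summed intervals do not overlap, but the samples do, and the exact permutation test over samples gave p = 0.4 (two-sided, smallest possible 0.1). In S2 cells the same exact test gave p = 1.

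The depth of both genes at A-to-G positions was compared next, as the summed reads of the gene at these positions in RPM. A molecule that spans several positions counts at each, so the measure follows changes within a gene and not levels between genes. In bulk samples more cells that transcribe a gene and more RNA per cell cannot be told apart.

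Fmr1 in S2 cells had 1011 RPM in the uninduced sample. It had 1364, 1431 and 1420 in Schneider's and 4393, 4334 and 4274 in arsenite. The groups were far apart, with all arsenite samples near 3 times the Schneider's samples (3.08 for the group means). Adar had 1121 RPM in the uninduced sample, 4435, 4523 and 4230 in Schneider's and 6452, 6315 and 6572 in arsenite. For Adar the larger step was the first, from uninduced to Schneider's (3.92-fold), and the smaller the one to arsenite (1.47-fold). For Fmr1 the order was the other way round, with 1.39-fold before 3.08-fold.

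**Figure D1:**
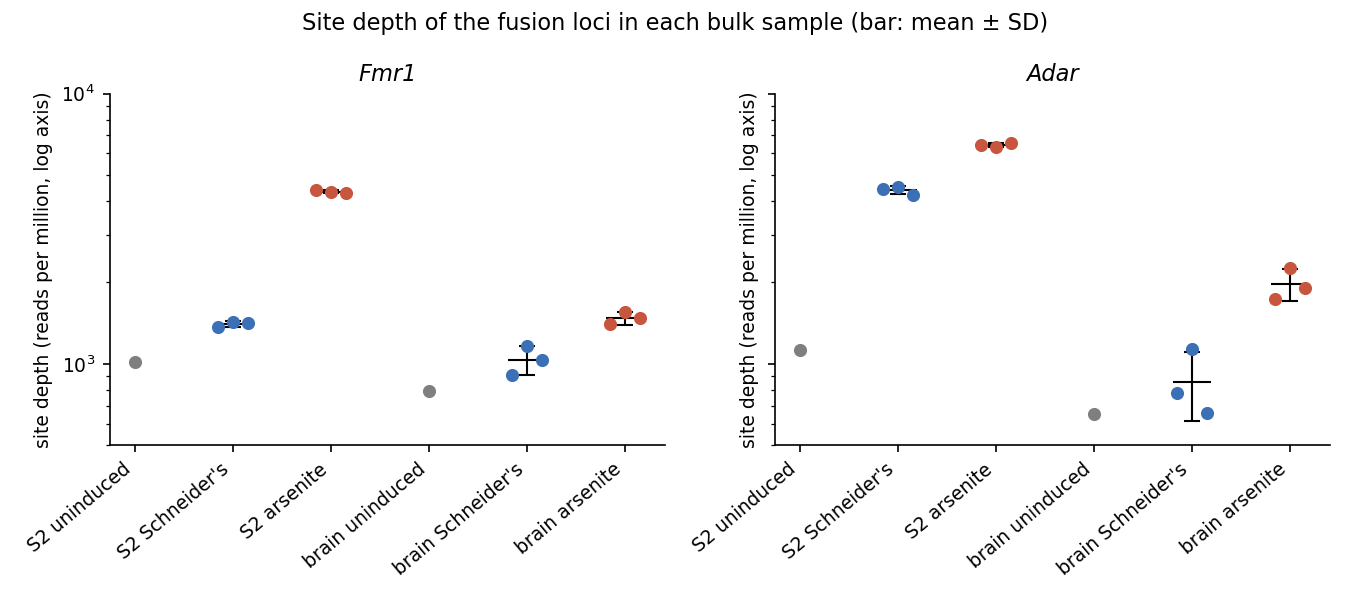
Site depth of Fmr1 (left) and Adar (right) in each bulk sample, in RPM at A-to-G positions on a log axis, with points for samples and bars for mean ± SD of 3 samples (uninduced: 1 sample). Fmr1 lies at 1364 to 1431 in S2 Schneider's and 4274 to 4393 in S2 arsenite, and Adar in brains lies at 660 to 1133 in Schneider's and 1733 to 2258 in arsenite.

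These differences passed the test for both genes in S2 cells (limma on log2 RPM with a pseudocount of 0.5, Benjamini-Hochberg adjusted p under 0.05, 3 samples per group and 1 uninduced). Arsenite against Schneider's gave a log2 difference of 1.63 ± 0.06 (SE) for Fmr1 (adjusted p = 1.2e-16) and 0.55 ± 0.05 for Adar (adjusted p = 3.0e-08). Over all genes 5.56% were called higher and 7.96% lower in that comparison, and the median gene moved by -0.0049. Schneider's against uninduced gave 0.47 ± 0.09 for Fmr1 (limma, adjusted p = 0.0012) and 1.97 ± 0.07 for Adar (limma, adjusted p = 4.8e-17), where 2.43% of genes were called higher. Both comparisons use the same Schneider's samples. The spread of the single uninduced sample was assumed to equal that of the other groups.

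In brains both genes were deeper in arsenite. Fmr1 had 792 RPM in the uninduced sample, 905, 1160 and 1036 in Schneider's, and 1398, 1556 and 1475 in arsenite. Adar had 652 uninduced, 780, 1133 and 660 in Schneider's, and 1733, 2258 and 1911 in arsenite. The Schneider's and arsenite samples of neither gene overlapped. The log2 difference was 0.52 ± 0.11 (SE) for Fmr1 (limma, adjusted p = 0.0014) and 1.23 ± 0.14 for Adar (limma, adjusted p = 9.0e-08), where 6.84% of all genes were called higher and 8.37% lower. Markers of other cells moved too. The 3 glial markers with positions (moody, nrv2, Eaat1) summed to 146 to 182 RPM in Schneider's and 199 to 245 in arsenite, and the 4 neuroblast markers to 1380 to 1443 and 1753 to 2140, with none of these at 0 in either group. The 7 neuronal markers overlapped, at 2388 to 2812 and 2393 to 2792. The part of the cell mixture in the result was not tested. Schneider's against uninduced was called for neither gene in brains. The log2 differences were 0.38 (95% interval 0.06 to 0.70) for Fmr1 and 0.36 (-0.04 to 0.75) for Adar. limma called 0.0% of 2630 genes higher there, and 36 were higher at an unadjusted p under 0.05.

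Depth did not change evenly along the fused sequences in bulk S2 cells. Mean RPM per position are given here by exon, over all single-base variant positions of the exon. In Fmr1 exon 5, near the start of the coding sequence, the uninduced sample had 32.5, the Schneider's samples 58.3 ± 5.9 (SD, n = 3) and the arsenite samples 306.9 ± 3.7. In exon 12, at its end, the values were 87.5, 69.6 ± 10.8 and 108 ± 17. The ratio of arsenite to Schneider's was 5.26 in exon 5, 3.66 in exon 6, 5.21 in exon 7, 3.71 in exon 8, 3.26 in exon 9, 2.59 in exon 10, 2.39 in exon 11 and 1.55 in exon 12. The rise in arsenite was thus steepest toward the 5′ end of the coding sequence and smallest in its last exon. The 1 variant position in the 5′ UTR lies 8 bases before the start codon. Depth there was 19.9 in the uninduced sample, 6.04 ± 2.34 in Schneider's and 4.92 ± 2.33 in arsenite, from 8, 8 and 6 reads. Arsenite and Schneider's differed within the spread of the samples.

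Adar rose in the opposite order along its fused part. The ratio of arsenite to Schneider's was 0.79 in exon 7, 0.98 in exon 8, 1.77 in exon 9, 1.72 in exon 10, 1.94 in exon 11 and 3.01 in exon 12. In exon 7 the 3 arsenite samples averaged 120 ± 5 and the Schneider's samples 151 ± 6. In exon 12 they averaged 96.6 ± 20.9 and 32.1 ± 6.7. In brains the 4 positions before the step had 42.0 RPM per position in the uninduced sample, 25.4 ± 5.4 in Schneider's and 34.3 ± 3.9 in arsenite. The ratio of arsenite to Schneider's was 1.35, without overlap of the samples (exact permutation p = 0.1). Bulk depth before the step was not compared in S2 cells. Of the 4 positions there, X:1780427 lies at the edge of the step and had 17 reads in the uninduced S2 sample, 42, 45 and 49 in Schneider's and 30, 19 and 29 in arsenite, near the fused X:1780431 beside it with 19, then 50, 51 and 60, and 42, 23 and 35. The other 3 had 0 to 5 reads in each S2 sample. In S2 cells the exact permutation test over samples gave its smallest possible p of 0.1 in each of the 8 coding exons of Fmr1. The same exact permutation test gave p = 0.1 in exons 7 and 9 to 12 of Adar and p = 0.7 in exon 8.

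**Figure D2:**
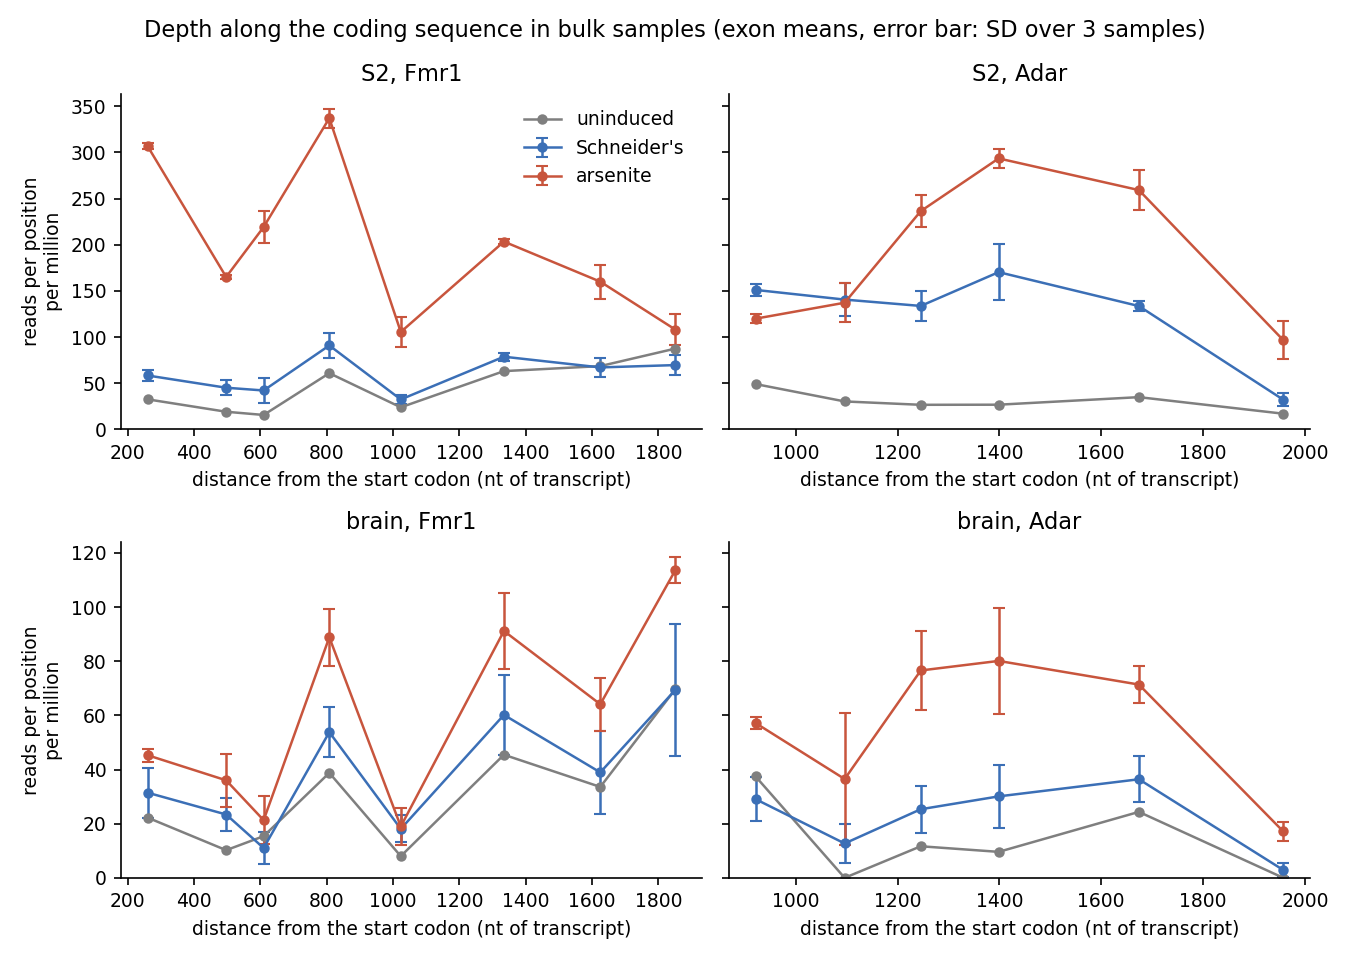
Mean RPM per position (linear axis from 0) against distance from the start codon in nucleotides of transcript, by exon, for Fmr1 (left) and Adar (right) in S2 cells (top) and brains (bottom). Points are group means and bars the SD of 3 samples, with 1 uninduced sample. In S2 cells the arsenite line stands 5.26-fold above Schneider's in Fmr1 exon 5 and 1.55-fold in exon 12.

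Within each sample the same pattern was measured as the reads per position in the first part of the Fmr1 coding sequence (46 positions up to nucleotide 700) over those in its last part (16 positions after nucleotide 1500). This ratio was 0.379 in the uninduced S2 sample. It was 0.804, 0.676 and 0.839 in Schneider's and 1.85, 1.89 and 1.68 in arsenite, with no overlap of the groups (exact permutation p = 0.1, two-sided and the lowest that 3 against 3 samples can give). In brains the ratio was 0.303 in the uninduced sample, 0.731, 0.369 and 0.286 in Schneider's and 0.380, 0.392 and 0.486 in arsenite, and the groups overlapped (exact permutation p = 1). The arsenite to Schneider's ratio in brains was 1.44 in Fmr1 exon 5 and 1.64 in exon 12. At the 5′ UTR position, which lies outside the fusion, it was 1.67 in brains. Depth there was 18.0 ± 3.8 RPM in Schneider's and 30.1 ± 3.6 in arsenite, from 16 and 28 reads. The rise in brains was thus not confined to fused sequence.

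The depth of fused Adar relative to Fmr1 also shifted. Reads per position in the fused part of Adar over those in the Fmr1 coding sequence stood at 0.733 in the uninduced S2 sample. They stood at 2.21, 2.10 and 1.97 in Schneider's and at 0.914, 0.920 and 0.974 in arsenite. In brains the ratio was 0.576 in the uninduced sample, 0.645, 0.730 and 0.541 in Schneider's and 0.874, 0.997 and 0.892 in arsenite. The 2 tissues therefore moved in opposite directions, each with groups that did not overlap (exact permutation p = 0.1 in each, the smallest possible). The arsenite values of both tissues lay near 1, but endogenous reads of both genes enter the ratio, so it does not measure the fusion alone. The difference between the tissues was not tested.

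Single cells gave a view of the fused and unfused parts side by side, since the more deeply sampled single-cell calls reach the UTRs. The single-cell calls held 49 A-to-G positions in Fmr1, of which 40 were coding and 9 in the 3′ UTR. Adar had 45, of which 32 lay in the fused part, 5 before the step and 8 in the 3′ UTR. Both plates are given in turn for each value.

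The Fmr1 coding sequence had 25.1 and 20.3 RPM per position in Schneider's. In Krebs Ringer buffer it had 137 and 130, in arsenite 80.0 and 90.3, and after short induction 94.8 and 70.3. The fused part of Adar had 24.8 and 18.2 in Schneider's, 136 and 128 in Krebs Ringer buffer, 71.7 and 86.4 in arsenite and 109 and 77.1 after short induction. Schneider's wells after 4 h of induction were therefore the lowest of the 4 conditions on both plates, and Krebs Ringer buffer the highest. The fused parts of both genes stood near the same depth, with a ratio of Adar to Fmr1 of 0.95 in Schneider's, 0.988 in Krebs Ringer buffer, 0.927 in arsenite and 1.13 after short induction over both plates.

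The Fmr1 3′ UTR did not follow. It had 16.96 and 15.9 RPM per position in Schneider's, 13.2 and 12.1 in Krebs Ringer buffer, 14.5 and 13.8 in arsenite and 16.6 and 15.5 after short induction. Relative to Schneider's this is 0.769, 0.859 and 0.979 over both plates, against 5.86, 3.72 and 3.63 for the coding sequence. Fmr1 coding depth exceeded that of the 3′ UTR 1.39-fold in Schneider's, 10.6-fold in Krebs Ringer buffer, 6.00-fold in arsenite and 5.14-fold after short induction. The 5 variant positions of the Fmr1 5′ UTR had 7.05, 7.97, 8.86 and 8.91 RPM per position in the same order of conditions.

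In Adar the positions before the step had 2.42 and 3.06 RPM per position in Schneider's. They had 2.62 and 3.59 in Krebs Ringer buffer, 5.06 and 4.67 in arsenite and 3.40 and 4.48 after short induction. Relative to Schneider's this is 2.09 and 1.52 in arsenite, 1.41 and 1.46 after short induction and 1.08 and 1.17 in Krebs Ringer buffer, smaller than the rise of the fused part. Without X:1780402 the ratios were 1.97 and 1.41 in arsenite, 1.16 and 1.29 after short induction and 0.563 and 0.80 in Krebs Ringer buffer. The fused part stood 7.95-fold above all 12 positions before the step in Schneider's, 42.9-fold in Krebs Ringer buffer, 16.1-fold in arsenite and 23.7-fold after short induction. Without X:1780402 these were 8.08, 71.5, 17.5 and 28.2 in the same order. The step was placed on the summed depth of these same wells, so a higher depth after it follows from that choice. The Adar 3′ UTR stayed between 0.740 and 2.44 in all plates and conditions, with 43 to 137 reads per condition behind these values.

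**Figure D3:**
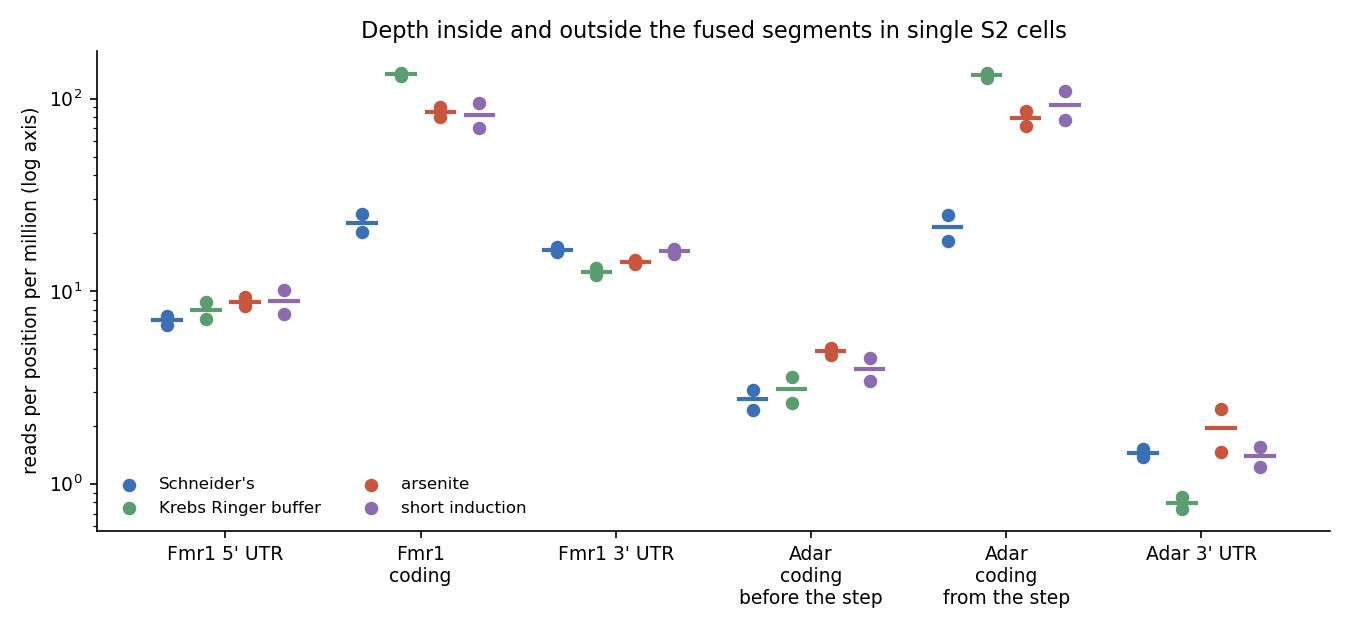
RPM per position (log axis) in 6 regions of Fmr1 and Adar in single S2 cells, by condition, with 1 point for each of the 2 plates and a line at their mean. The fused parts range from 18.2 to 137, while the Fmr1 3′ UTR stays between 12.1 and 16.96.

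Summed over each gene, the depth differences between conditions were tested with plates as samples (limma on log2 RPM, 2 plates per condition, adjusted p under 0.05). Arsenite against Schneider's gave log2 differences of 1.76 ± 0.11 (SE) for Fmr1 (adjusted p = 7.8e-09) and 1.92 ± 0.13 for Adar (adjusted p = 3.7e-08), where 2.75% of genes were called higher. Krebs Ringer buffer against Schneider's gave 2.40 and 2.63, where 5.05% were called higher and the median gene moved by -0.11. Arsenite was below Krebs Ringer buffer, by log2 differences of -0.64 (limma, adjusted p = 0.0014) for Fmr1 and -0.71 (limma, adjusted p = 0.0034) for Adar, where 2.6% of genes were called lower. Short induction against 4 h of induction gave 1.73 for Fmr1 and 2.10 for Adar, where 0.11% of genes (5 of 4539) were called higher. These comparisons share the Schneider's wells.

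Bulk and single S2 cells differed in shape. In single cells the arsenite to Schneider's ratio was 3.19 in Fmr1 exon 5 and 3.83 in exon 12, and 3.24 in Adar exon 7 and 3.42 in exon 12. The gradient along the coding sequence that bulk S2 samples showed was thus not seen in the wells. The bulk and single-cell libraries were normalized separately and this difference was not tested.

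The metallothionein genes, whose promoter type drives the fusion in S2 cells, were looked up after these values had been seen. MtnD in bulk S2 cells had 0 RPM in the uninduced sample, 103 to 129 in Schneider's and 599 to 659 in arsenite (log2 difference of arsenite 2.39, limma, adjusted p = 1.4e-09). MtnA in single cells had 112 and 92.3 in Schneider's, 408 and 476 in Krebs Ringer buffer, 310 and 297 in arsenite and 195 and 170 after short induction. MtnD in single cells, with 16 to 61 reads per plate and condition, had 7.76 and 7.17 RPM in Schneider's. It had 15.5 and 28.4 in Krebs Ringer buffer, 23.4 and 21.8 in arsenite and 21.8 and 24.9 after short induction. Both genes thus moved in the same direction as the summed depth of Fmr1 and Adar in each of these conditions. On plate 1, however, MtnD was lower in Krebs Ringer buffer than in arsenite or after short induction. Their part in the result was not tested.

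Reads of the sequences that the fusion carries were found in most wells, and endogenous transcripts carry them too. At A-to-G positions at least 1 read of the Fmr1 coding sequence was seen in 188 of 192 wells in Schneider's (97.9%, 94.8 to 99.4), 190 of 192 in Krebs Ringer buffer, 186 of 192 in arsenite and 157 of 160 after short induction. For the fused part of Adar the counts were 186, 188, 185 and 156. The median number of reads per well in the Fmr1 coding sequence was 15 in Schneider's, 54 in Krebs Ringer buffer, 33 in arsenite and 33 after short induction, at median totals of 21055, 17820.5, 22879.5 and 23863 reads per well. Single wells reached 190 reads in Schneider's, 749 in Krebs Ringer buffer, 772 in arsenite and 799 after short induction. In the 32 empty wells, at a median total of 93 reads, 6 had a read of the Fmr1 coding sequence and 7 one of fused Adar (18.8% and 21.9%), and 0 had one of the Fmr1 3′ UTR. The 3′ UTR of Fmr1 was read in 80.2% of wells in Schneider's, 62.5% in Krebs Ringer buffer, 71.9% in arsenite and 79.4% after short induction.

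Across wells the Fmr1 coding sequence and the fused part of Adar varied together. Over wells with at least 1000 reads, the Pearson coefficient between log2(RPM + 10) of the Fmr1 coding sequence and of fused Adar was 0.483 in Schneider's (189 wells), 0.891 in Krebs Ringer buffer (188 wells), 0.726 in arsenite (184 wells) and 0.765 after short induction (160 wells). Spearman's coefficients were 0.534, 0.933, 0.817 and 0.860. Within plates the Pearson coefficients were 0.361 and 0.637 in Schneider's, 0.898 and 0.882 in Krebs Ringer buffer, 0.759 and 0.739 in arsenite and 0.726 and 0.824 after short induction. Between the Fmr1 coding sequence and its own 3′ UTR the Pearson coefficients were 0.079, -0.0062, 0.0098 and 0.089. The wells of a condition share plates and the 2 measures share the well's total.

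Editing was then followed, first as the average editing frequency of each gene, the share of edited reads averaged over its A-to-G positions. Without induction it was near 0. Fmr1 had 0 edited of 406 reads in uninduced S2 cells and 0 of 283 in the uninduced brain sample, and these counts of 0 allow shares of up to 0.739% and 1.06%. Adar had 1 edited read in each of these samples, of 450 and 233 reads.

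In S2 cells Fmr1 was edited to 8.47%, 7.18% and 9.98% in Schneider's and 13.5%, 13.9% and 16.8% in arsenite. The groups did not overlap, and their means were 8.55% ± 1.40 and 14.7% ± 1.84 (SD, n = 3). Adar was edited to 10.1%, 9.77% and 11.8% in Schneider's and 13.5%, 11.4% and 13.1% in arsenite, with means of 10.6% ± 1.11 and 12.7% ± 1.09, and the lowest arsenite sample lay below the highest Schneider's sample.

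**Figure D4:**
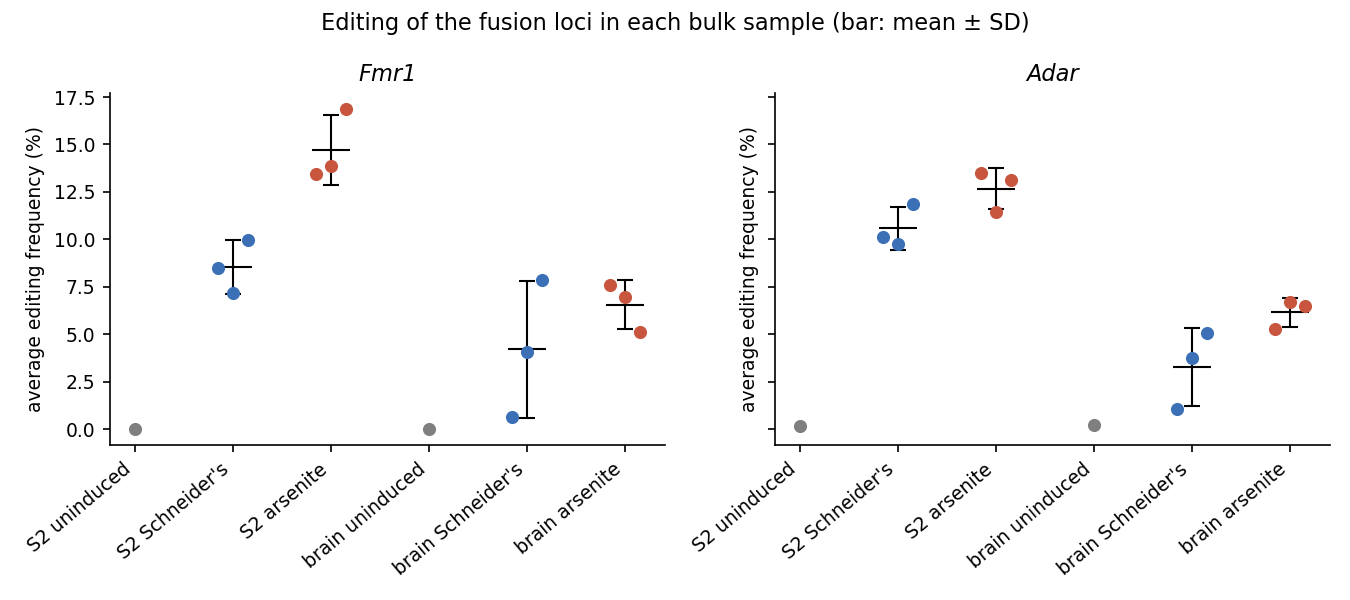
Average editing frequency (percent) of Fmr1 (left) and Adar (right) in each bulk sample, with points for samples and bars for mean ± SD of 3 samples (uninduced: 1 sample). Uninduced samples lie at or below 0.235%, and Fmr1 in S2 cells reaches 13.5% to 16.8% in arsenite.

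Neither gene passed the unadjusted threshold of 0.01 for arsenite against Schneider's in S2 cells (limma on untransformed frequencies), where 23.6% of all genes were called higher and 0.0872% lower. The difference was 6.18 percentage points for Fmr1 (95% interval 0.97 to 11.4, limma p = 0.028, adjusted p = 0.076, exact permutation p = 0.1). It was 2.10 for Adar (-2.64 to 6.84, limma p = 0.31, exact permutation p = 0.2). The median gene rose by 10.7 percentage points, more than either. Divided by the mean frequency of the sample, both genes were lower in arsenite, by -0.10 times the sample mean for Fmr1 and -0.37 for Adar. With no filter on the genes tested, Fmr1 passed the threshold.

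Against the uninduced sample, Schneider's raised the editing of Adar by 10.4 percentage points (95% interval 3.74 to 17.03), just past the unadjusted threshold of 0.01 (limma, adjusted p = 0.15). Fmr1 was 8.55 higher (1.23 to 15.9), without passing it (limma, adjusted p = 0.20). Of all genes 6.62% were called higher in this comparison. The call of Adar was lost when any 1 Schneider's replicate was left out, with differences of 9.75 to 10.8.

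In brains the spread within Schneider's was wide. Fmr1 was edited to 0.662%, 4.05% and 7.88% in Schneider's and 7.58%, 6.98% and 5.12% in arsenite, so the groups overlapped. Adar was edited to 1.04%, 3.75% and 5.08% in Schneider's and 5.29%, 6.68% and 6.47% in arsenite, without overlap. Replicate 1 of Schneider's was lowest for both genes and also had the lowest share of the G-to-C change, 1 of 10 reads. The differences of 2.36 percentage points for Fmr1 (-3.63 to 8.35, exact permutation p = 0.4) and 2.86 for Adar (-1.67 to 7.39, exact permutation p = 0.1) were not called by limma, where 6.06% of all genes were called higher and 6.15% in either direction. Scaled by the sample mean, both were lower in arsenite, by -0.29 and -0.11 times that mean. Against the uninduced brain sample Schneider's was 4.198 higher for Fmr1 (-4.21 to 12.6) and 3.06 for Adar (-3.23 to 9.34), and neither was called, where 0.214% of genes were called higher. The arsenite difference was 3.82 percentage points larger in S2 cells than in brains for Fmr1 (95% interval -2.87 to 10.5) and -0.76 for Adar (-5.89 to 4.38). The limma interaction term called neither, against 9.65% of all genes in either direction and 8.83% higher.

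At single positions more could be seen. Bulk calls held 22 A-to-G positions in Fmr1 and 31 in Adar, all in coding sequence and all but 1 of Adar in the fused part. With reads summed over samples, 0 of 22 Fmr1 and 1 of 31 Adar positions had an edited read in uninduced S2 cells, 20 and 31 in Schneider's and 22 and 30 in arsenite. In brains the counts were 0 and 1 without induction, 12 and 10 in Schneider's and 18 and 24 in arsenite. The positions were called from these libraries together, and the induced groups have 3 samples each and more reads. The share of edited reads was higher in arsenite at 19 of 22 Fmr1 and 25 of 31 Adar positions in S2 cells and at 15 and 22 in brains.

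The position edited most was X:1781840 in Adar, in exon 9. It changes an AGN codon to GGN and so residue 430 to glycine. Self-editing of Adar mRNA to glycine at a serine of the catalytic domain is a known activity of the fly enzyme. It had 0 edited of 12 reads in uninduced S2 cells. The Schneider's samples had 32 of 82, 31 of 61 and 29 of 59 edited reads and the arsenite samples 81 of 113, 71 of 115 and 60 of 102. Summed, this is 45.5% (38.5 to 52.7) and 64.2% (58.8 to 69.4). In brains it had 0 of 4 reads without induction, 8 of 28 in Schneider's (28.6%) and 37 of 77 in arsenite (48.1%, 36.5 to 59.7). In single cells it was edited in 49.1% of reads in Schneider's, 44.9% in Krebs Ringer buffer, 51.8% in arsenite and 50.9% after short induction.

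Close to it, the adjacent adenosines X:1781852 and X:1781853 lie in 1 codon and give N434D and N434S. They were edited in 19.0% and 21.7% of reads in S2 Schneider's and 32.0% and 29.9% in arsenite. X:1780514, which gives K306R, was edited in 23.3% of reads in Schneider's and 30.6% in arsenite, and X:1783572, which gives N632S, in 24.3% and 27.3%. X:1780514 had 16.7% in brain Schneider's and 14.8% in brain arsenite, and in single cells 27.3% in Schneider's and 25.1% in arsenite. The position of N434D had 0 of 27 edited reads in brain Schneider's, against 11 of 86 in brain arsenite (12.8%).

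In Fmr1, 3R:10105178 (Y284C) was edited in 12.3% of reads in S2 Schneider's (19 of 155) and 23.1% in arsenite (119 of 516), and in brains in 2.8% and 8.3%. Further toward the 3′ end lie a pair of histidine codons, 3R:10104339 (H520R) and 3R:10104348 (H517R), beside 3R:10104351 (Q516R). In S2 cells H520R was edited in 27.3% of reads in Schneider's and 28.8% in arsenite, H517R in 23.5% and 30.9%, and Q516R in 12.0% and 18.9%. In brains H520R stood at 17.6% and 17.2% and H517R at 17.5% and 14.9%. 3R:10104985 (Q332R) rose from 11.8% (6 of 51 reads) to 28.6% (44 of 154) in S2 cells and in single cells from 7.0% in Schneider's to 24.7% in arsenite. 3R:10103287 (Q667R), in the last exon, had 1 of 12, 1 of 18 and 2 of 17 edited reads in S2 Schneider's and 5 of 9, 4 of 7 and 2 of 9 in arsenite, with 4.0% and 1.2% in brains. These positions were picked for description after their values had been seen.

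**Figure D5:**
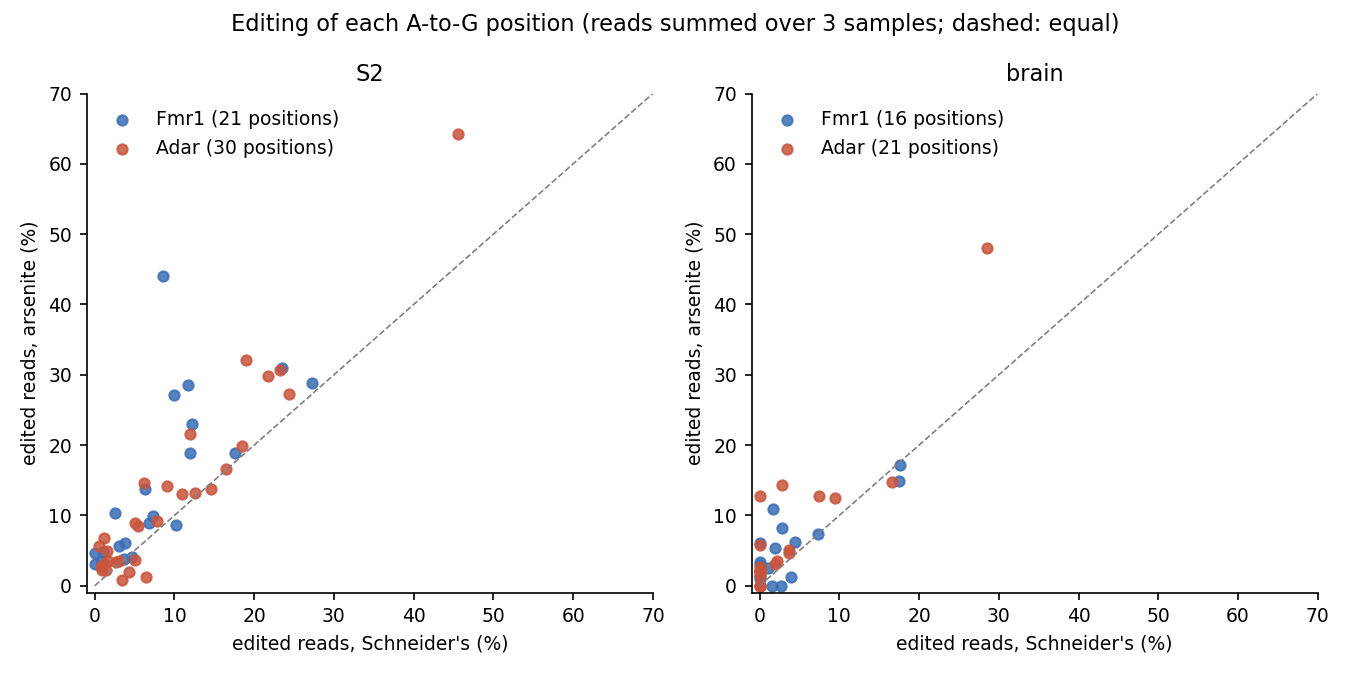
Share of edited reads (percent) in arsenite against Schneider's for each A-to-G position with at least 20 reads in both groups, summed over 3 samples, in S2 cells (left, 21 Fmr1 and 30 Adar positions) and brains (right, 16 and 21). In S2 cells 19 Fmr1 and 25 Adar positions lie above the dashed line of equal shares, and the point furthest up, at 64.2%, is the Adar position of residue 430.

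The bases edited in each gene were counted next. In Fmr1 the base before the edited adenosine was cytidine at 15 of 22 positions, against 28.8% of all bulk A-to-G positions, and thymidine at 4, against 36.2%. In Adar it was adenosine at 12 and thymidine at 11 of 31. The triplet TAG, a preferred ADAR context, was edited at 5 Adar and 0 Fmr1 positions, against 12.4% of all. In Fmr1 13 positions were the second base of a codon, 20 of 22 changed the amino acid, and 7 of these changed glutamine to arginine. In Adar 15 of 31 were the third base, 16 changed the amino acid, 6 were silent and 9 could not be resolved without the neighbouring bases. Which adenosines the sequences offer was not counted.

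In single cells editing was counted in the sequences that the fusion carries and in parts outside it. Coding reads of Fmr1 come from the fusion and from endogenous transcripts. Coding depth over 3′ UTR depth was 1.39 in Schneider's and 6.00 in arsenite, so this mixture differed between conditions. The coding shares below therefore combine the level of editing with the portion of fusion reads, and the 2 were not separated. Summed over positions, edited reads in the Fmr1 coding sequence made up 4.40% and 5.30% on the 2 plates in Schneider's, 4.53% and 4.36% in Krebs Ringer buffer, 8.63% and 9.96% in arsenite and 5.61% and 8.02% after short induction. In the Fmr1 3′ UTR they made up 8.21% and 3.61%, 7.83% and 5.13%, 6.60% and 3.41%, and 6.20% and 3.82% in the same order. The coding sequence was highest in arsenite on both plates, while the 3′ UTR, taken as endogenous, was edited in every condition, with overlapping intervals of arsenite and Schneider's on both plates. Its shares differed more between plates than between conditions. Many of the edited reads of the coding sequence came from few wells. These wells were ranked by their edited reads, and their part of all coding reads, edited or not, was not counted. The 5 wells with most edited Fmr1 reads on each plate, of 96, held 380 of 713 and 586 of 815 edited reads in arsenite, against 46 of 107 and 34 of 91 in Schneider's, and 352 of 455 in the 80 wells of plate 2 after short induction. The median share per well over both fused parts, given further on, was not higher in arsenite than in Schneider's. The fused part of Adar had 8.30% and 10.1% in Schneider's, 6.77% and 5.66% in Krebs Ringer buffer, 8.74% and 13.1% in arsenite and 8.16% and 9.60% after short induction. Before the step, 20 of 132 reads were edited in arsenite, 4 of 76 in Krebs Ringer buffer, 0 of 38 in Schneider's and 0 of 91 after short induction. Without X:1780402 these were 16 of 87, 0 of 12, 0 of 23 and 0 of 46. The 4 positions left had edited reads in arsenite only. They were called from these same wells, so the counts of 0 elsewhere are no separate evidence. X:1779100, X:1779103 and X:1779106 had 24 reads each in arsenite, and 1 molecule may count at all of them. With X:1780402 included, 16 of 73 arsenite reads were edited on plate 1 and 4 of 59 on plate 2.

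As averages per gene, the single-cell differences were not called. Arsenite against Schneider's gave 3.81 percentage points for Fmr1 (-0.13 to 7.75) and 4.05 for Adar (-0.94 to 9.05), where 26.5% of all genes were called higher and the median gene rose by 8.56. Within plates 1 and 2 the difference was 3.44 and 4.18 for Fmr1 and 6.57 and 1.54 for Adar, and with the plate as a block neither gene was called either (limma, adjusted p = 0.16 and 0.20). Krebs Ringer buffer differed from Schneider's by 0.12 for Fmr1 (-3.82 to 4.06) and -0.68 for Adar (-5.68 to 4.31), where 4.43% of genes were called higher. Short induction differed from 4 h by 1.62 and 0.14, where 0.179% were called higher. Arsenite exceeded Krebs Ringer buffer by 3.69 (-0.26 to 7.63) and 4.74 (-0.26 to 9.73), where 10.4% were called higher. Krebs Ringer buffer had the largest depth difference from Schneider's. In these averages the intervals of the editing differences from Schneider's include 0 for arsenite, Krebs Ringer buffer and short induction alike (short induction -2.32 to 5.56 for Fmr1 and -4.85 to 5.14 for Adar).

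Per well, the deposited frequency of Fmr1 was above 0 in 88 of 183 Schneider's wells (48.1%) and 113 of 172 arsenite wells (65.7%). That of Adar was above 0 in 91 (49.7%) and 111 (64.5%). Median reads per well were lower in Schneider's, and a well with few reads shows 0 more often. Among wells with at least 20 reads of the fused parts, the median share of edited reads was 4.80% in Schneider's (128 wells), 3.01% in Krebs Ringer buffer (161), 4.17% in arsenite (159) and 4.23% after short induction (131). The highest well reached 34.8%, 19.4%, 32.2% and 18.4%. The Pearson coefficient of this share with log2 depth of the fused parts was 0.203, 0.161, 0.325 and 0.359. Where both genes had at least 20 reads, their edited shares had a Pearson coefficient of 0.521 in Schneider's (37 wells), 0.539 in Krebs Ringer buffer (114), 0.776 in arsenite (101) and 0.601 after short induction (83). In Schneider's this differed between plates, at 0.098 over 21 wells and 0.676 over 16, while in arsenite it was 0.756 and 0.807.

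Other genes of the same biology served as a frame. Of 16 granule proteins and FMR1 partners, 15 were tested in S2 cells, and 5 were edited more in arsenite (Atx2, Dcr-1, Rox8, tral, vig) and 0 less, where 23.6% of all genes were called higher. Their median difference was 9.75 percentage points, against 10.7 over all genes. Among the 4 most read, vig, an RNA-binding protein of the RNAi complex, went from 9.16% ± 0.65 to 20.9% ± 2.2 (SD, n = 3) and Rox8, the fly TIA1 homologue, from 11.9% ± 2.3 to 23.1% ± 3.2. rin, the fly G3BP, had 13.5% ± 0.7 and 17.9% ± 1.5, and pAbp, the poly(A)-binding protein, 11.1% ± 0.3 and 14.5% ± 1.2, and these 2 were not called. In brains limma called 0 of 15, with 2 higher at an unadjusted p under 0.05, and 6.06% of all genes called higher. In single cells 8 of 15 were higher, where 26.5% of all genes were. In site depth 1 of 15 was called higher (pAbp) and 2 lower (Atx2, Dcr-1) in S2 arsenite, where 5.56% of all genes were higher and 7.96% lower. In brains 3 of 14 were higher and 1 lower, where 6.84% and 8.37% of all genes were.

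Of 20 RNAs known as targets of endogenous Adar in the fly nervous system, 6 were tested in S2 cells. In arsenite 1 was called higher and 0 lower, where 23.6% of all genes were called higher. Their median difference was 4.14 percentage points, against 10.7 over all genes. The 1 called was Atpalpha, the sodium pump subunit, at 7.43% ± 0.84 in Schneider's and 17.7% ± 0.7 in arsenite (SD, n = 3). In brains 14 were tested and limma called 0, with 0 at an unadjusted p under 0.05 and 6.06% of all genes called higher. The median difference was -1.09 percentage points against 4.87 over all genes. Of the others among the 4 most read, unc-13, a synaptic vesicle priming factor, had 7.21% ± 1.79 in brain Schneider's and 10.1% ± 6.6 in arsenite, and stj, a calcium channel subunit, 7.54% ± 5.87 and 9.34% ± 0.72. shi, the fly dynamin, had 0 and 2.698% ± 4.67. Their uninduced brain sample had 3.30% for unc-13 and 4.08% for stj, and 0 for shi.

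Across the 14 bulk samples, the pattern of each member was compared with 1847 genes that had at least 20 reads in every sample. The samples share tissue and treatment, so these coefficients describe grouped points. The average editing frequency of Fmr1 was most like that of CG1815 (Pearson r = 0.963), Nup153, Prp8, AP-1mu and woc (0.953), and that of Adar most like E2f1 (0.976), kek1, Osbp, zfh1 and ALiX (0.959). Fmr1 and Adar had r = 0.930 with each other. In log2 depth Fmr1 was most like Smg6 (0.887), Inos, Mkrn1, Adar (0.833) and RnrS, while Adar was most like CG6770 (0.931), Hsp83, Hem, CG2316 and sgl (0.899). For depth, Adar was thus among the 5 genes most like Fmr1, while Fmr1 ranked 56th for Adar.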

How the data were processed

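The authors trimmed reads with cutadapt 3.2, removed ribosomal RNA with BWA 0.7.17-r1188, mapped uniquely with STARsolo 2.7.7a to BDGP6, collapsed molecular identifiers with UMI-tools 1.1.1 and called variants with GATK 4.1.9.0 on merged libraries. They deposited the average editing frequency per gene as a fraction from 0 to 1, with no other normalization, and the reads of each base at variant positions. They kept A-to-G positions with QUAL over 250 and AF below 0.95. Frequencies recomputed from them equalled the deposited ones within 1e-06 for 4998 genes, both members included. Single-cell positions pass the same limits. Depth is reads at these positions, at a mean of at least 20 per sample for testing.

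Positions were placed on the Ensembl 115 annotation, and codons come from bases given with the variants. Tests between groups used limma 3.58.1 (two-sided, R 4.3.3), for editing on genes with any frequency above 0 among the samples fitted. Calls were p under 0.01 for editing, the cut-off of the study, and Benjamini-Hochberg adjusted p under 0.05 for depth. The study's own test differed, an empirical Bayes test from the ebbr package that asked for higher editing in arsenite. Calls here are therefore not the study's calls. Plates were the samples for single cells. Exact permutation tests compared single values. Intervals of shares are 95% Clopper-Pearson, and counts of 0 are given the limit of 3 reads. The tests were tested on simulated data. Members, lists and rules were chosen with earlier results of these data known. Named are the members, the 5 genes most like each, and at most 4 most-read genes of each list. The tables of the authors' own comparisons, which hold their differences and p-values, and 20 libraries without a matching label were not used. Python 3.11.15, numpy 2.4.6, pandas 2.3.3, scipy 1.17.1 and matplotlib 3.10.9 did the rest.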

Additional observations from a re-analysis of the deposited data

Results flagged for a closer look

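Reads of the fused parts appeared in the 32 empty wells, which belong to no comparison. The A-to-G positions of the Fmr1 coding sequence had 20 reads there and those of fused Adar 24, both above the 3 reads that a count of 0 allows. They came from 6 and 7 wells, with 3 wells holding both, at a median total of 93 reads per empty well. Of these reads 1 of 20 and 3 of 24 were edited, and the only read at the G-to-C position carried the change. Over all single-base positions, the empty wells had 163 RPM per position for the Fmr1 coding sequence and 175 for fused Adar, against 25.3 for the Fmr1 3′ UTR from 4 reads.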

How the results depend on the processing

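Of 150 recomputed values for Fmr1 and Adar, 142 kept their direction and their side of the threshold. Dividing each frequency by the sample mean turned the arsenite difference in editing negative for both genes, at -0.105 (Fmr1) and -0.368 (Adar) times the sample mean in S2 cells and -0.293 and -0.107 in brains. With no filter on the genes, Fmr1 editing in S2 cells passed the threshold, at 6.18 percentage points. Without 1 Schneider's replicate, Adar editing against uninduced stayed at 9.75 to 10.8 percentage points but lost its call, with 2 samples in place of 3. Same-numbered samples showed only weak correlations of their deviations (between -0.089 and 0.067), so no pairing was used in the main fits. These values cannot show whether the replicates were run as matched sets. With the replicate block no call of the members changed, and genes called higher in editing fell from 1083 to 497 in S2 cells and from 254 to 100 in brains. The genes called higher in brain editing numbered 100 to 471 with 1 replicate left out, 160 with at least 10 reads per position, 83 after scaling and 1 at an adjusted p under 0.05. In S2 cells they numbered 548 to 1047 with 1 replicate left out, 548 to 578 where it was a Schneider's sample, and 165 after scaling, when 148 were lower. Genes called higher and lower in depth were 339 and 430 (S2) and 311 and 396 (brains) over all single-base positions, and 76 and 113, and 57 and 102, with no minimum of reads. Depth calls against uninduced S2 cells were 134 higher over all single-base positions, in place of 72, and editing calls 138 to 151 with 1 Schneider's replicate left out, in place of 304. The causes were not tested. The marker position alone could not be varied, since only 1 exists. Brain shares of the marker rest on 21 and 34 reads, which limits their precision.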
